A study of Mus musculus with 57 samples.

Results

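The comparison asked how the RNA of Sod1G86R corticospinal neurons (CSN) differed between late ages (90 and 105 days) and early ages (30 and 60 days). The libraries were picked out by their labels, as the CSN libraries of mutant genotype, and numbered 13 of the 57 in the series, 6 late and 7 early. Earlier results of these data were known when they were chosen. The series measured RNA of mouse brain by SMART-Seq sequencing in CSN and in cells labelled control cells and described no further, of Sod1G86R and wild-type animals. The late mutant group held 4 libraries at 90 days and 2 at 105 days, and the early mutant group held 3 at 30 days and 4 at 60 days. Wild-type CSN, 4 libraries at each of the same 4 ages, gave the change with age without the transgene. The labels give ages as plain numbers, read here as days, and give neither the animals' sex nor strain, nor how the neurons were isolated. All 29 CSN libraries share the tissue label, brain, and no agent is named for any of them. Nothing in the labels says that replicates came from separate animals, so p-values measure the spread between these libraries, part of which may be technical.

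CSN are large pyramidal neurons of layer V of the motor cortex that send their axons to the spinal cord, where they drive spinal motor circuits. Together with the motor neurons of brainstem and spinal cord they degenerate in amyotrophic lateral sclerosis (ALS). Mutant superoxide dismutase 1 misfolds and is linked to stress of the endoplasmic reticulum (ER), impaired mitochondria and slowed axonal transport. CREB3, named in the title of the series, is a membrane-bound transcription factor of the ER that is cut in the Golgi and then acts in the nucleus.

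Levels are normalised counts, as deposited, and differences are on the log2(value + 34.6) scale, where 34.6 is 1 ppm of the median library total. This scale understates the change of low genes. A gene was called when its limma p, adjusted over the 19093 genes tested by the method of Benjamini and Hochberg, was under 0.05. Recovered reads ranged from 27.1 to 58.9 M in mutant CSN and from 22.8 to 50.3 M in wild-type CSN. Late mutant libraries were deeper, at 48.0 ± 9.84 M reads (SD, n = 6), against 34.5 ± 5.71 M in early ones (SD, n = 7; two-sided exact permutation p = 0.014, adjusted p = 0.0839 over 6 library measures). The mitochondrially encoded share was 5.33% ± 2.04 late and 6.48% ± 2.55 early (exact permutation p = 0.397, n = 6 and 7). Detected genes numbered 29300 to 32600 late and 27200 to 36900 early. Median correlations of log2 levels were 0.973 between late libraries, 0.964 between early ones and 0.969 between late and early ones.

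The identity of the neurons was read from the defining markers first. Bcl11b, a transcription factor of corticospinal identity, averaged 9154 ± 1790 in the 13 mutant CSN libraries and 283.6 ± 179 in the 14 mutant control-cell libraries. Fezf2, which acts upstream of Bcl11b, averaged 7204 ± 1290 in mutant CSN and 484.1 ± 333 in mutant control cells. The callosal marker Cux2 went the other way, at 62.42 ± 33.5 in mutant CSN and 801.7 ± 171 in mutant control cells. The defining markers were thus present in CSN at every age, and the interneuron enzyme Gad1 (94.58 ± 85.4) and the microglial gene Tmem119 (113.1 ± 116) stood low in them. The sum of the GABAergic marker list did not. Its median was 55430 late and 47050 early in mutant CSN, and 52680 in mutant control cells. Wild-type CSN had medians of 27900 late and 26810 early. Of the 11 members tested, 1 had a mean of at least 3460. The Y-linked gene Ddx3y ran from 1316 to 3257 and the X-inactivation RNA Xist from 0 to 24.03 in mutant CSN, so libraries of late and early ages were alike in this respect.

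Sod1, which reads both the transgene and the mouse's own gene, was high at every age. Late libraries had 80220, 117000, 128500 and 120500 at 90 days and 117500 and 172200 at 105 days. Early libraries had 102500, 96200 and 128600 at 30 days and 143800, 106800, 107800 and 121600 at 60 days. Late and early libraries overlapped throughout, with means of 122600 ± 29500 late and 115300 ± 16800 early (log2 difference 0.14, 95% interval -0.28 to 0.55, limma adjusted p = 0.853). The sign of this difference turned without the 105-day libraries (-0.05). In wild-type CSN Sod1 averaged 3302 late and 3158 early.

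No gene passed between late and early mutant CSN, 0% of the 19093 tested. The smallest limma adjusted p was 0.134, for Mzf1. At an unadjusted p under 0.05 there were 1397 genes, 7.32% of those tested, of which 687 (3.6%) were higher and 710 (3.72%) lower at late ages. edgeR's quasi-likelihood test on recovered reads called 0 genes and DESeq2 called 9, 2 higher and 7 lower. The precision of the comparison limits what could have been missed. The 95% interval lay inside a 2-fold change in either direction (log2 -1 to 1) for 16905 genes (88.5%), and for 9209 of the 9731 genes (94.6%) with a mean of at least 346. The median half-width of the interval was 0.45 on the log2 scale, a factor of 1.36. A fitted difference over 2-fold on this scale was seen for 32 genes (0.168%), and for 16 of the 9731 (0.164%). Late libraries all lay above all early ones for 13 genes (0.0681%) and below them for 27 (0.141%). In wild-type CSN, with 8 late and 8 early libraries, the counts were 2 (0.0105%) and 3 (0.0157%), and since the groups differ in size these are not comparable with the mutant counts.

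**Figure D1:**
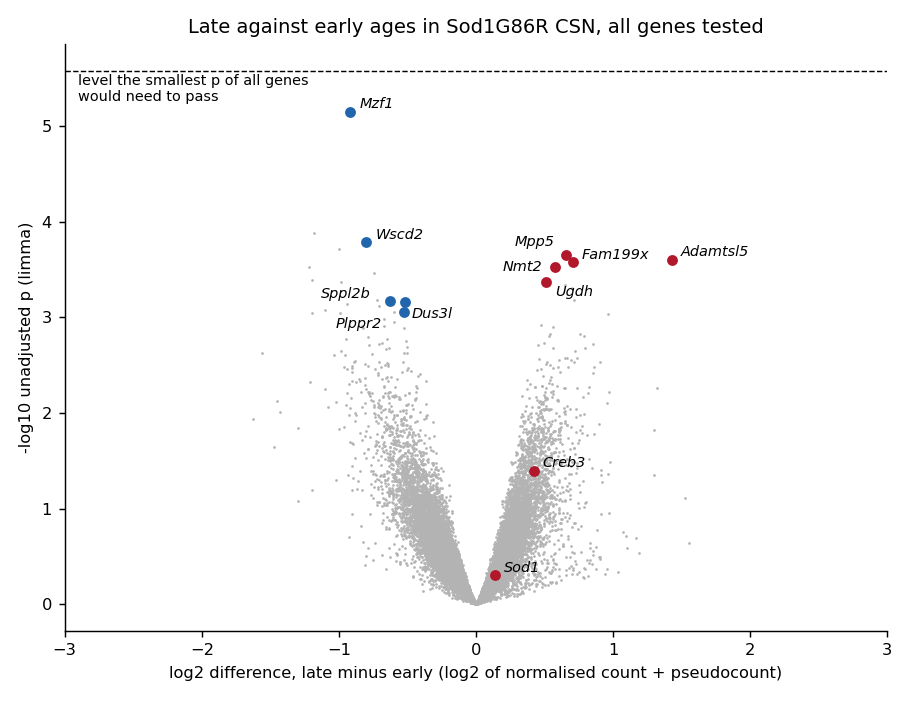
Late against early ages in Sod1G86R CSN for the 19093 genes tested: the log2 difference (horizontal, late minus early) against -log10 of the unadjusted limma p (vertical). Mzf1 came nearest to the dashed line, the level the smallest p would have to reach to pass, and no gene crossed it.

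Mzf1, a zinc finger transcription factor first described in myeloid cells (ENSMUSG00000030380, GRCm38 chromosome 7, 13042303 to 13054764, minus strand), had the smallest p of all genes. Its level was 193.6, 198.4, 169.4 and 167.7 at 90 days and 167.4 and 139.3 at 105 days. Early libraries had 409, 340.7 and 380.9 at 30 days and 218, 407.5, 363.5 and 311.7 at 60 days. Each of the 6 late libraries lay below each of the 7 early ones, the nearest early library being a 60-day one at 218. The means were 172.7 ± 21.3 late and 347.3 ± 66.9 early, a log2 difference of -0.92 (SE 0.168, 95% interval -1.26 to -0.57, limma adjusted p = 0.134). DESeq2 called this difference (adjusted p = 2.67e-05), as did limma with array weights (0.039) and limma without the 60-day replicate 1, the library at 218 (0.0278). In wild-type CSN Mzf1 averaged 290.5 late and 418.3 early with overlapping ranges (log2 difference -0.46, adjusted p = 0.506). The difference between the genotypes was -0.46 (95% interval -0.91 to 0.00, adjusted p = 1), so a lower level with age was not shown to belong to the mutant.

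The 4 other genes with the smallest p among those lower at late ages did not pass either. Wscd2 ran from 151 to 297.8 late (median 244) and from 306.5 to 660.1 early (median 461), without overlap (log2 difference -0.80, SE 0.185). DESeq2 called Wscd2 (adjusted p = 0.0375), against 0.622 with limma. Dus3l, a dihydrouridine synthase that modifies RNA, ran from 844.4 to 1202 late (median 996.8) and from 1257 to 1629 early (median 1370), also without overlap (-0.52, SE 0.137). Plppr2, a phospholipid phosphatase-related membrane protein, lay between 1040 and 1527 late (median 1347) and between 1637 and 2333 early (median 1792; -0.53, SE 0.142). Sppl2b, an intramembrane protease, averaged 1135 ± 186 late and 1847 ± 446 early, with overlapping ranges (-0.63, SE 0.166). Their limma adjusted p-values lay between 0.622 and 0.652. Wild-type CSN gave log2 differences of -0.54 for Wscd2, -0.20 for Dus3l, -0.29 for Plppr2 and -0.51 for Sppl2b, none of which passed.

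Among genes higher at late ages, Fam199x (chromosome X, 137049594 to 137082503, plus strand) had late libraries wholly above early ones. It ran from 1132 to 1571 late (median 1280) and from 506.8 to 1054 early (median 875.2), a log2 difference of 0.71 (SE 0.171). Nmt2, which attaches myristate to proteins, averaged 8734 ± 1810 late and 5956 ± 1250 early (0.57, SE 0.14). Mpp5, a polarity scaffold of the Crumbs complex, averaged 2999 ± 423 late and 1914 ± 535 early (0.65, SE 0.155). Ugdh, which makes UDP-glucuronate for the sugar chains of the matrix, ran from 900.5 to 1192 late (median 1006) and from 581.5 to 903.7 early (median 707.3; 0.51, SE 0.129). Late and early ranges of Nmt2, Mpp5 and Ugdh overlapped. Each of these 4 genes had a limma adjusted p of 0.622, and DESeq2 called Nmt2 (0.0495) and Ugdh (0.0375).

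Ugdh differed least with age in wild type among these, at 979.9 late and 961.6 early. Its mutant early libraries, 632.7 on average at 30 days and 784.2 at 60 days, lay below the wild-type averages of 921.5 and 1002 at those ages. The late averages, 1026 at 90 days and 1006 at 105 days, lay near the wild-type 996.8 and 963. The difference of the age effect between genotypes was 0.48 for Ugdh (95% interval 0.14 to 0.83, unadjusted p = 0.00801, adjusted p = 1).

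Adamtsl5, a secreted ADAMTS-like matrix protein, had the largest fitted difference among the genes named so far. It ran from 427.5 to 939.4 late (median 790) and from 26.79 to 815.9 early (median 331), a log2 difference of 1.43 (SE 0.343, 95% interval 0.73 to 2.13, limma adjusted p = 0.622). The mutant averages were 142 at 30 days, 654.6 at 60 days, 642.2 at 90 days and 917.5 at 105 days, so the lowest average was at 30 days. The 30-day libraries ran from 26.79 to 331 and the 60-day ones from 319.7 to 815.9. Adamtsl5 passed without the 30-day replicate 6 (limma adjusted p = 0.0466). In wild-type CSN the averages at the 4 ages were 130.1, 313.8, 394.8 and 317.1.

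**Figure D2:**
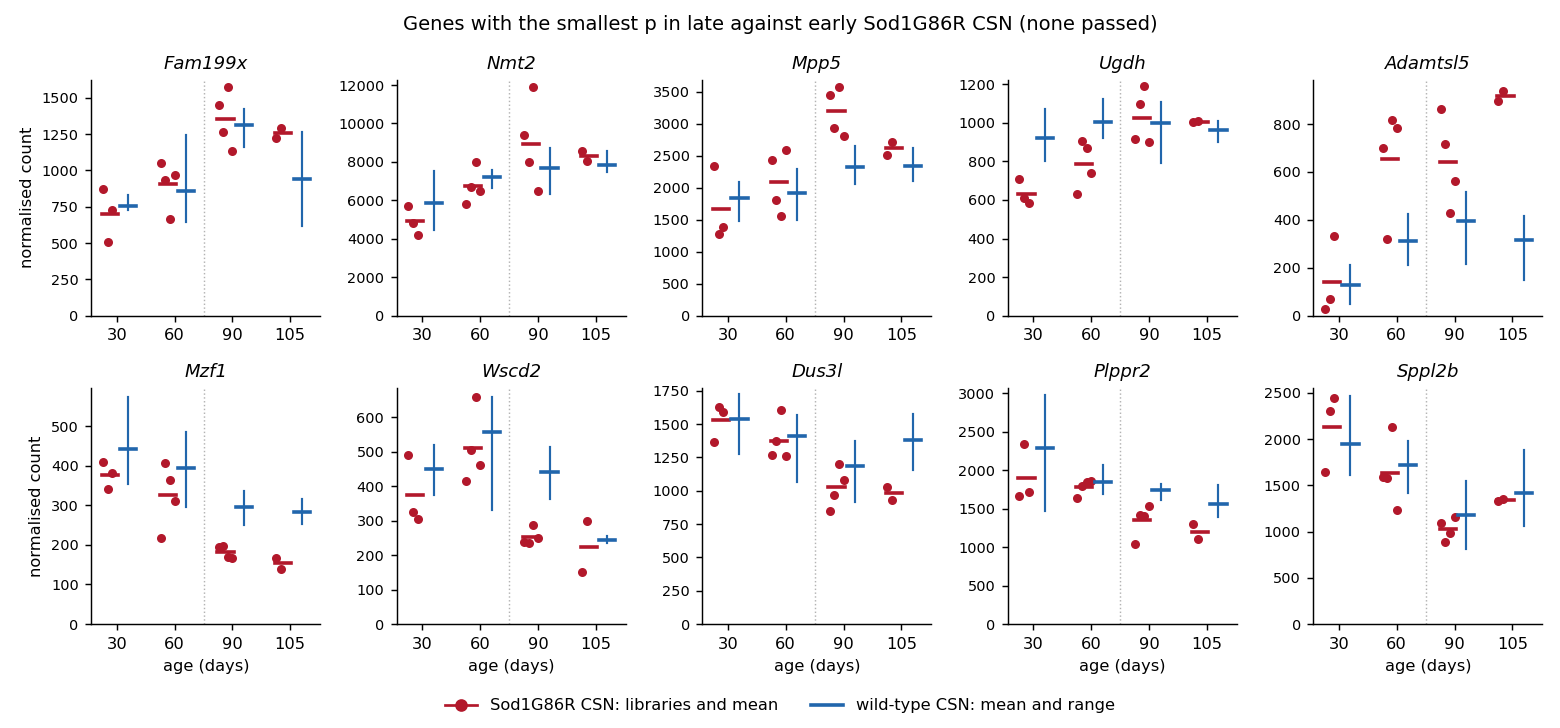
Normalised counts (vertical, from 0) of the 5 genes with the smallest p in each direction, by age in days (horizontal). Points are the 13 Sod1G86R CSN libraries with their mean by age, bars are the mean and range of 4 wild-type CSN libraries by age, and the dotted line parts early from late ages. The late points of Mzf1 lie between 139.3 and 198.4, below every early point, and Adamtsl5 is lowest at 30 days.

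DESeq2's other calls included low genes, named after their values were seen. Among these were Trpm3 (log2 difference by DESeq2 -1.5), Kmt5c (-1.6), Gm4211 (-2.99) and 9330104G04Rik (-1), all lower at late ages. In the limma fit their adjusted p-values were 0.622 or 0.652. Highest late and early levels were 168.1 and 518 for Trpm3, a cation channel.

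Creb3 itself (ENSMUSG00000028466, chromosome 4, 43562332 to 43567060, plus strand) did not pass. It stood at 6368, 5071, 4147 and 3495 at 90 days and at 4361 and 6043 at 105 days. Early libraries had 2942, 3217 and 5346 at 30 days and 5489, 2309, 3618 and 3621 at 60 days. The groups overlapped, since early libraries reached 5489 and late ones 3495, and the means were 4914 ± 1120 late and 3792 ± 1200 early (log2 difference 0.42, 95% interval 0.02 to 0.82, limma adjusted p = 0.671). In wild-type CSN Creb3 averaged 2827 late and 2561 early (0.13), and the difference between genotypes was 0.29 (95% interval -0.24 to 0.82). Creb3 shares 360 exonic bases with Tln1 on the other strand, which averaged 1105 in mutant CSN, and the library kit does not mark strand.

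Genes of the CREB3 family and its targets were measured as a list of 13, of which 10 were tested and 0 passed. Their median log2 difference was 0.26, with 8 values above 0, against a median of -0.02 over all genes. In wild-type CSN the median was -0.04, and the median of the difference between genotypes was 0.21. Herpud1, an ER protein that feeds proteins to degradation, averaged 5416 ± 1490 late and 3894 ± 1210 early (0.46, SE 0.222). Its ranges overlapped widely, from 3232 to 7712 late and from 2366 to 5928 early.

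The level of a gene moved with the sign of its difference, which bears on every list median. Among 2110 genes with a mean of at least 3460, the median log2 difference was 0.15 and 76.2% were above 0. Among 7621 genes between 346 and that level the median was 0.05, and among 9362 lower ones it was -0.12, with 32.5% above 0. Wild-type CSN gave 0.10, 0.01 and -0.06 for the same 3 classes. The part of level in the medians of lists was not tested. Quantile normalisation moved several other mutant medians by over 1.5 times or turned their sign. It gave 0.17 for the CREB3 list and the citric acid cycle, 0.15 for the proteasome, 0.09 for heat shock chaperones and cholesterol synthesis, 0.07 for glycolysis, 0.05 for ER-to-Golgi trafficking and cytosolic ribosomal proteins, and 0.02 for autophagy. Axonal, synaptic, glutamate receptor, potassium channel and ALS-linked lists then lay between -0.11 and -0.01, sodium and calcium channels at -0.18, injury genes at 0.02, and GABA and glycine receptors at 0.11.

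The unfolded protein response runs through ATF6, IRE1 with XBP1, and PERK with ATF4. Lists of 16, 17 and 31 tested genes for these branches gave medians of 0.23, 0.17 and 0.07, and 0 members passed in any of them. With quantile normalisation the mutant medians were 0.07, 0.06 and -0.02. In wild-type CSN the medians were 0.13, 0.12 and 0.06. Pdia4, a disulfide isomerase of the ER, averaged 1771 ± 529 late and 1205 ± 288 early (log2 difference 0.49, SE 0.182, limma adjusted p = 0.661). Hyou1, an ER chaperone of the same list, had the opposite sign, at 254.9 ± 60.9 late and 418.8 ± 180 early (-0.63, SE 0.265). Its wild-type values were alike, 255.4 late and 398.1 early.

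Key genes of the response, named for their role after their values were seen, overlapped between late and early mutant CSN. Hspa5, the main ER chaperone (BiP), averaged 16170 ± 5530 late and 12380 ± 3330 early (log2 difference 0.32, 95% interval -0.12 to 0.75). Xbp1, the factor spliced by IRE1, averaged 4978 ± 1410 late and 3518 ± 1560 early (0.52, 95% interval -0.02 to 1.05). Atf4, the translated effector of PERK, averaged 4514 ± 641 late and 4252 ± 552 early (0.09, -0.02 with quantile normalisation). Ddit3 (CHOP), a factor that promotes cell death under ER stress, averaged 1401 ± 222 late and 1770 ± 477 early (-0.24, 95% interval -0.67 to 0.19). For Ddit3 the interval thus held no increase beyond 0.19 on the log2 scale.

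**Figure D3:**
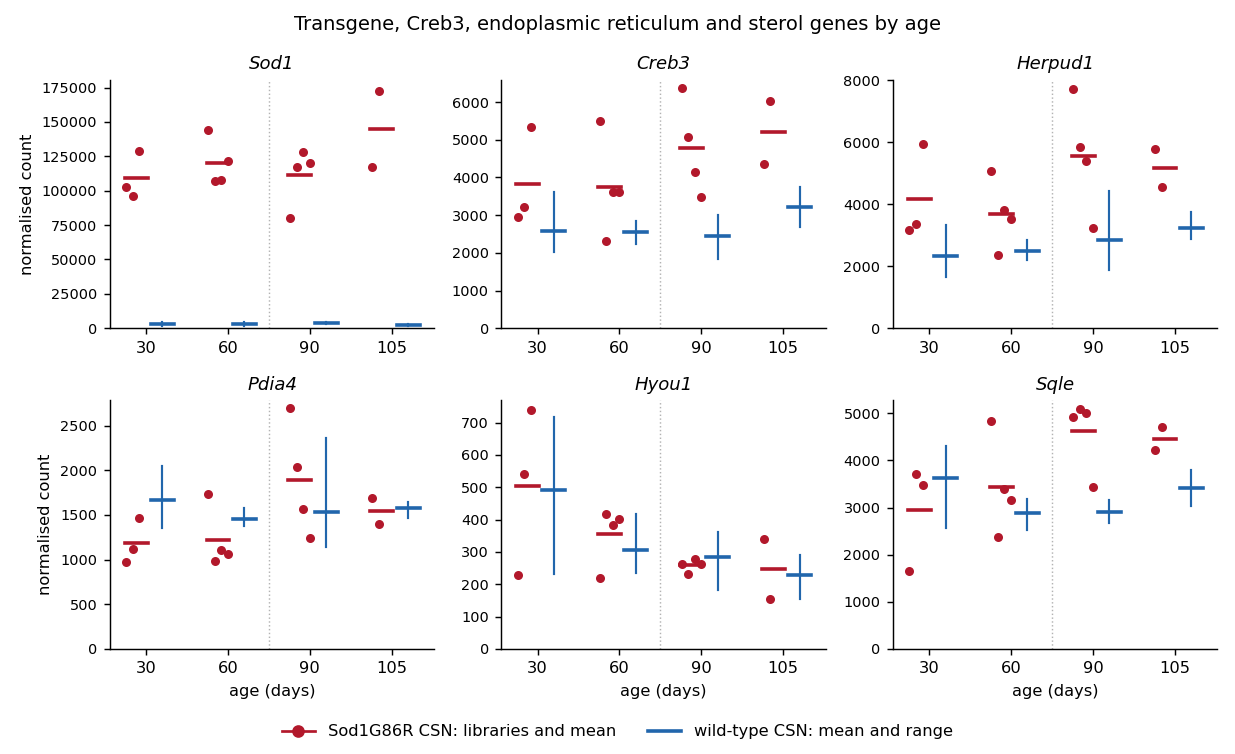
Normalised counts (vertical, from 0) of Sod1, Creb3, Herpud1, Pdia4, Hyou1 and Sqle by age in days (horizontal). Points are Sod1G86R CSN libraries with their mean by age and bars are the mean and range of wild-type CSN. Creb3 spans 2309 to 5489 in early and 3495 to 6368 in late mutant libraries, and the groups overlap in each panel.

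Protein turnover and transport were measured by 3 further lists. Of 42 proteasome subunits, 38 had values above 0 and 0 passed, with a median of 0.26 in mutant and 0.25 in wild-type CSN. Psmd1, a scaffold of the regulatory particle, had the smallest p, at 4769 to 6625 late (median 5880) and 3544 to 5509 early (median 4504; log2 difference 0.39, SE 0.129). Of the list, 29 subunits had a mean of at least 3460. ER-to-Golgi trafficking (38 tested) had a median of 0.16 in mutant and 0.04 in wild-type CSN, led by the COPII coat gene Sec23b (0.48, 2616 ± 684 late and 1811 ± 572 early). Autophagy and lysosome genes (40 tested) had a median of 0.10 in mutant and 0.07 in wild-type CSN, and 26 heat shock chaperones gave 0.18 and 0.12. Stip1, a co-chaperone that links HSP70 and HSP90, averaged 5355 ± 1150 late and 4060 ± 1080 early (0.42).

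Mitochondrial genes split by the genome that encodes them. All 36 nuclear subunits of complex I tested had values above 0, with a median of 0.25, and 39 of 40 subunits of complexes II to V did, also with a median of 0.25. None passed. The medians were 0.12 and 0.09 with quantile normalisation, and 0.17 and 0.16 once each library's mitochondrial share entered the fit. Of these subunits 35 and 37 had means of at least 3460, a class in which 76.2% of all genes were above 0. In wild-type CSN the medians were larger, 0.40 and 0.33, and the medians of the difference between genotypes were -0.13 and -0.10. Ndufa10, an accessory subunit of complex I, stood at 14830 to 23920 late (median 21510) and 11700 to 24000 early (median 16940; log2 difference 0.43, SE 0.18). Sdha, the catalytic subunit of succinate dehydrogenase, averaged 16460 ± 2980 late and 12070 ± 4030 early (0.44, SE 0.18).

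The 12 mitochondrially encoded genes tested had a median of -0.21 in mutant and -0.21 in wild-type CSN, with 10 of 12 below 0 in the mutant and 0 past the test. With the mitochondrial share of the library as a covariate the mutant median was -0.01. That share is the sum of the mitochondrially encoded genes themselves, so a median near 0 was set by the fit and shows nothing about them. The mutant median was -0.16 with quantile normalisation and -0.22 with TMM normalisation. The cytochrome c oxidase subunit mt-Co2 had the lowest mutant difference of the list, at 440.5 ± 130 late and 709.2 ± 295 early (-0.57, SE 0.332). In wild-type CSN mt-Co2 averaged 1302 late and 1009 early (0.008). Citric acid cycle enzymes (20 tested) had a median of 0.30 in mutant and 0.19 in wild-type CSN, the highest mutant median of the 49 lists. Glycolysis (19 tested) had 0.19 and 0.16.

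Cholesterol synthesis had more genes with a small p and a higher late level, for its size, than any other of the 49 lists. Of 24 enzymes tested, 0 passed and 7 had an unadjusted p under 0.05 with a higher late level. Of all genes 3.6% did so, and of those with a mean of at least 3460, a class that holds 6 of the 24, 9.72%. The median was 0.15 in mutant and 0.02 in wild-type CSN, and 20 of 24 mutant values were above 0. Sqle, squalene epoxidase, ran from 3429 to 5102 late (median 4814) and from 1658 to 4839 early (median 3403; log2 difference 0.56, SE 0.175, limma adjusted p = 0.661). Sqle averaged 3161 late and 3262 early in wild type, and the difference between genotypes was 0.59 (95% interval 0.11 to 1.06, adjusted p = 1). Msmo1, a sterol demethylase, averaged 14000 ± 3620 late and 9264 ± 3680 early (0.62, SE 0.238), with 8556 and 8183 in wild type.

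Cytosolic ribosomal proteins (63 tested) had a median of 0.11 in mutant CSN, with 48 above 0 and 0 at an unadjusted p under 0.05. In wild-type CSN the median was 0.36, with 23 such genes, and the median difference between genotypes was -0.27 with 0 such genes. Of all genes, 7.32% had such a p in the mutant, 8.22% in wild type and 2.42% for the difference. No ribosomal gene passed in either genotype or for the difference, so a difference between genotypes was not shown. All 63 mutant intervals lay inside a 2-fold change in either direction. So did those of 88.5% of all genes and 94.6% of those with a mean of at least 346.

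**Figure D4:**
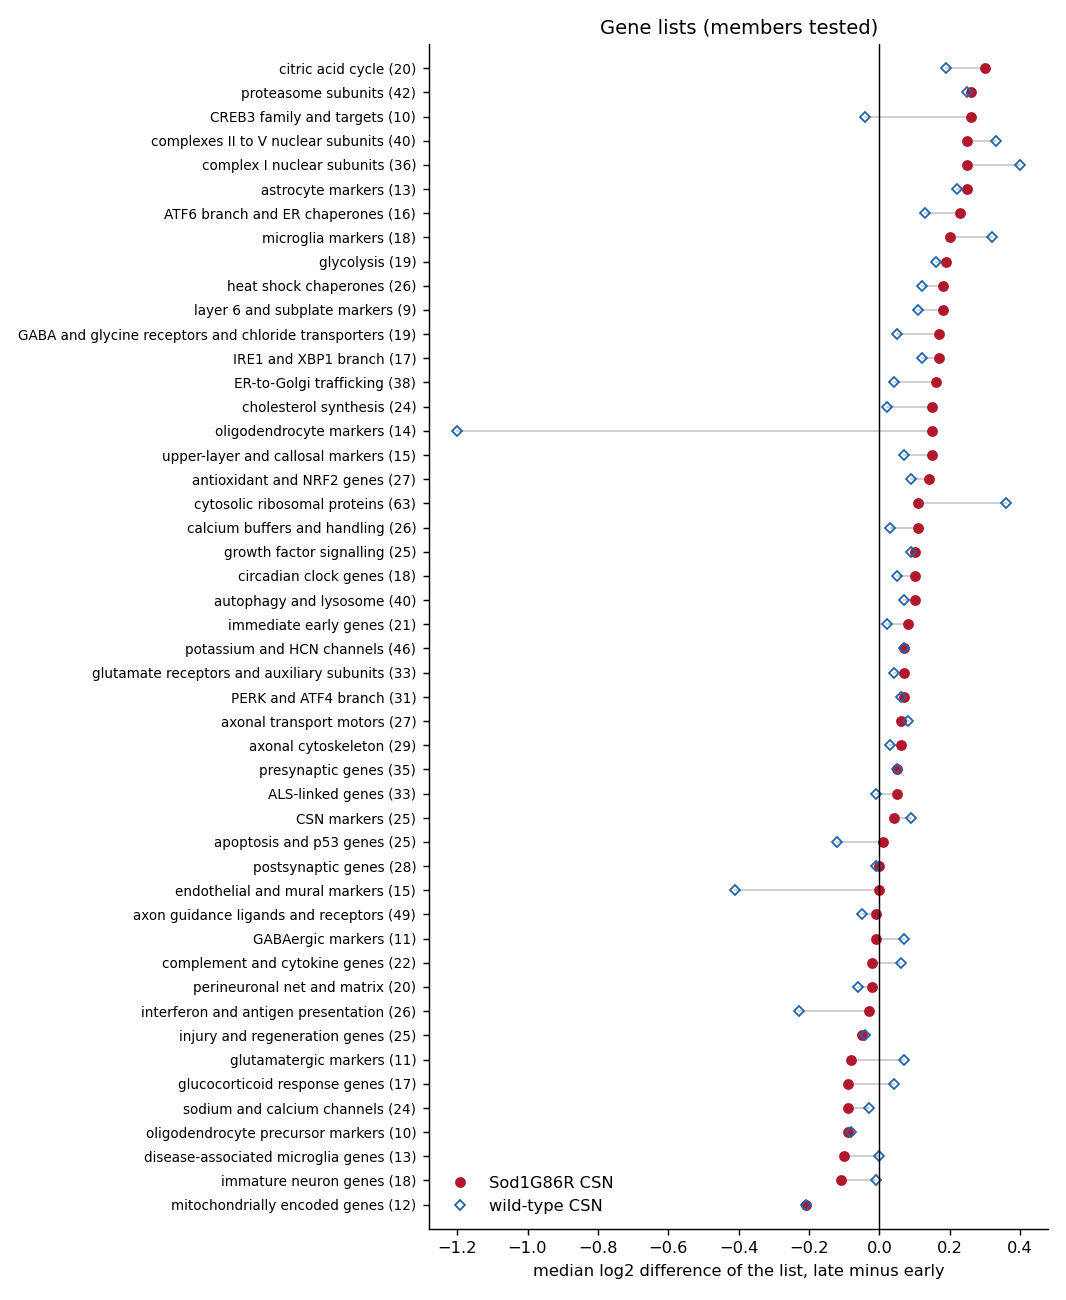
Median log2 difference (horizontal, late minus early) of 48 gene lists, with the number of members tested in brackets. Filled circles are Sod1G86R CSN and open diamonds wild-type CSN. Mutant medians run from -0.21 for mitochondrially encoded genes to 0.30 for the citric acid cycle, and the oligodendrocyte list lies farthest apart between genotypes, at 0.15 in the mutant and -1.20 in wild type.

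Markers of CSN identity had log2 differences from -0.33 to 0.51, with a median of 0.04 (-0.04 with quantile normalisation). All 25 tested had a 95% interval inside a 2-fold change in either direction. So did 88.5% of all genes and 94.6% of those with a mean of at least 346, so this was not particular to the markers. Bcl11b averaged 9521 ± 1620 late and 8838 ± 1990 early (log2 difference 0.14, 95% interval -0.15 to 0.43, and -0.01 with quantile normalisation). Fezf2 averaged 7762 ± 1550 late and 6726 ± 883 early (0.27, 95% interval -0.04 to 0.57). Crym, a thyroid hormone-binding protein, averaged 11480 ± 1810 late and 12510 ± 2860 early (-0.09, 95% interval -0.43 to 0.24). The calmodulin-binding peptide Pcp4 averaged 44580 ± 7050 late and 47320 ± 11500 early (-0.05, 95% interval -0.47 to 0.37). The member with the smallest p was Oma1, a mitochondrial protease (0.51, limma adjusted p = 0.661).

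Glutamatergic genes included a pair of opposite sign. Slc17a7 (VGLUT1), which loads glutamate into vesicles, ran from 3754 to 6141 late (median 5114) and from 4872 to 11430 early (median 7695; log2 difference -0.66, SE 0.195, limma adjusted p = 0.661). Neurod6, a transcription factor of pyramidal neurons, ran from 3967 to 7960 late (median 6896) and from 2973 to 5400 early (median 4433; 0.70, SE 0.179, limma adjusted p = 0.629). Both pairs of ranges overlapped. In wild-type CSN the differences had the same signs and were smaller, -0.23 and 0.27, and the differences between genotypes, -0.43 and 0.43, did not pass.

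Axonal and synaptic genes were nearly level as groups. Medians were 0.06 for 29 axonal cytoskeleton genes, 0.06 for 27 transport motors, 0.05 for 35 presynaptic and 0.00 for 28 postsynaptic genes, with 0 passing. Each of the 35 presynaptic and 27 motor genes had a 95% interval inside a 2-fold change in either direction. So did 88.5% of all genes and 94.6% of those with a mean of at least 346. Dpysl2, a collapsin response mediator of the axon, averaged 22130 ± 6440 late and 13940 ± 2620 early (log2 difference 0.56, SE 0.191). The kinesin Kif5b averaged 10170 ± 1770 late and 7766 ± 2300 early (0.45, SE 0.172). Unc13a, which primes vesicles and is linked to ALS risk, averaged 1756 ± 288 late and 2521 ± 407 early (-0.50, SE 0.148), and 2321 and 3057 in wild type. Unc13a shares 495 exonic bases with Colgalt1 on the other strand, which averaged 812.1.

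Excitability genes did not pass either. Of 24 sodium and calcium channel genes, 17 had values below 0 with a median of -0.09, led by the T-type channel Cacna1g (674 ± 146 late and 993.6 ± 305 early; log2 difference -0.56, SE 0.193). The 19 GABA and glycine receptor and chloride transporter genes had a median of 0.17, led by the glycine receptor subunit Glrb (17530 ± 4380 late and 11800 ± 4010 early; 0.52, SE 0.202). The 33 glutamate receptor genes had a median of 0.07 and the 46 potassium and HCN channel genes 0.07.

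Injury and stress genes gave mixed signs. Jun, an immediate early factor induced by axon injury, stood at 183.3 to 483.5 late (median 322.9) and 488.7 to 1182 early (median 691.4), so every late library lay below every early one (log2 difference -1.04, SE 0.313, limma adjusted p = 0.661). It shares 232 exonic bases with Junos on the other strand, which averaged 60.34. In wild-type CSN Jun averaged 529.9 late and 866.6 early (-0.70). Of the 21 immediate early genes tested, 0 passed, with 12 values above 0 and 9 below. Their median was 0.08 (-0.02 with quantile normalisation). At an unadjusted limma p under 0.05, 5 were higher at late ages and 1, Jun, was lower, against 3.6% and 3.72% of all genes. Among the higher ones, Nr4a2 averaged 482.8 late and 313.4 early, with overlapping ranges (0.65, SE 0.197, limma adjusted p = 0.661). The 25 injury and regeneration genes tested had a median of -0.05 and the 18 immature neuron genes -0.11, with 0 passing. Of the 25 apoptosis and p53 genes tested, 0 passed and the median was 0.01. ALS-linked genes (33 tested) had a median of 0.05, and Optn, an autophagy receptor, averaged 272.4 ± 100 late and 183.7 ± 78.9 early (0.54, SE 0.249).

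Sums of glial markers overlapped widely between late and early libraries. The summed oligodendrocyte markers ran from 9678 to 88130 late (median 42630) and from 9153 to 111900 early (median 36290). Summed microglia markers ran from 2783 to 8626 late (median 6737) and from 1759 to 21970 early (median 3929). Summed astrocyte markers ran from 30640 to 102900 late (median 42270) and from 19690 to 81950 early (median 27250). The oligodendrocyte sum in wild-type CSN ran from 4992 to 351000 late (median 40640) and from 60250 to 145300 early (median 97730). The list's median log2 difference was 0.15 in mutant and -1.20 in wild type. For the difference between genotypes 1 of its 14 genes had an unadjusted limma p under 0.05, as did 2.42% of all genes. In mutant control cells the median sums were 462900, 124500 and 76500 for these 3 lists. None of the 13 astrocyte, 14 oligodendrocyte or 18 microglia markers passed, and no more than 2 of each list had an interval inside a 2-fold change, so changes larger than 2-fold in these markers could not be told from none. The source of this RNA was not tested, and in bulk samples fewer cells of a type and less RNA per cell cannot be told apart.

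Summed upper-layer and callosal neuron markers lay at 15890 to 21390 late (median 17190) and 11120 to 18150 early (median 13480). Wild-type CSN had 16160 to 25450 late (median 18070) and 11800 to 21750 early (median 14150). Of the 15 such markers 0 passed, with a median log2 difference of 0.15 in mutant and 0.07 in wild type. Their mutant differences had both signs, from -0.92 to 0.54. At an unadjusted limma p under 0.05, 2 were higher and 3 lower at late ages, as were 3.6% and 3.72% of all genes. The part of these neurons' RNA in other results was not tested.

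Astrocyte and interneuron genes varied widely between libraries of an age. Aqp4, the astrocyte water channel, stood at 55.61, 1507, 266.7 and 2173 at 90 days and 199.7 and 274.3 at 105 days. Early libraries had 9.824, 144.2 and 647.6 at 30 days and 483.1, 11.49, 13.85 and 576.3 at 60 days (log2 difference 1.19, 95% interval -1.11 to 3.48, and -0.23 with the library number as a covariate). The neuropeptide Sst ran from 21.96 to 2673 late (median 79.39) and from 4.179 to 229 early (median 43.22). The highest late value of Sst came from a single 105-day library.

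The change with age in wild-type CSN was measured in the same fit, and 0 of 19093 genes passed there too, with 1569 (8.22%) at an unadjusted p under 0.05, of which 743 (3.89%) were higher and 826 (4.33%) lower. edgeR called 0 genes there and DESeq2 7. Only the test of the difference can place a change in the mutant, and it gave 0 genes that passed, 0 by edgeR and 1 by DESeq2. At an unadjusted p under 0.05 there were 463 genes (2.42%), 257 (1.35%) with a higher and 206 (1.08%) with a lower difference in the mutant. The 95% interval of that difference lay inside a 2-fold change in either direction for 14318 genes (75%). Of the 9731 genes with a mean of at least 346 it did so for 8676 (89.2%).

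Zfp14, a zinc finger protein, had the largest difference between genotypes among the genes named by p. In mutant CSN it stood at 733.2, 523.1, 500.4 and 554.7 at 90 days and 430.3 and 824.5 at 105 days, against 332.2, 300.8 and 394.1 at 30 days and 321.1, 288.4, 332.4 and 290.8 at 60 days. All late mutant libraries lay above all early ones. Wild-type CSN ran from 110.3 to 483.2 late (median 315.5) and from 266.4 to 588.9 early (median 401.7), with overlap. The log2 differences were 0.79 in mutant and -0.45 in wild type, 1.24 apart (SE 0.299, 95% interval 0.63 to 1.85, unadjusted p = 0.000263, limma adjusted p = 1).

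Other genes with small p for the difference in the same direction were Arhgap12, a GTPase-activating protein (1609 late and 1122 early in mutant, 1365 and 1544 in wild type), and Mfsd1, a lysosomal transporter (913.4 and 596.5 in mutant, 477.4 and 617.2 in wild type). Slc2a1 (GLUT1), the glucose transporter rich in brain endothelium, differed mainly through wild type, at 615.1 late and 1144 early, against 814.5 late and 725.1 early in the mutant. The carbohydrate kinase Fggy averaged 631 late and 422.8 early in mutant and 374.6 and 516.1 in wild type. In the other direction, the shieldin subunit Shld1 averaged 417 late and 508.5 early in mutant and 381.1 and 249.6 in wild type, and the endocytic adaptor Epn1 276.2 and 423 in mutant and 505.8 and 446.7 in wild type. Sag, Ctnnbip1 and Slx1b completed the 5 genes of that direction. Slx1b, at 241.9 late and 398.4 early in mutant CSN, shares 360 exonic bases with Bola2 on the other strand, which averaged 1831 there. The adjusted p was 1 for each of the 10.

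**Figure D5:**
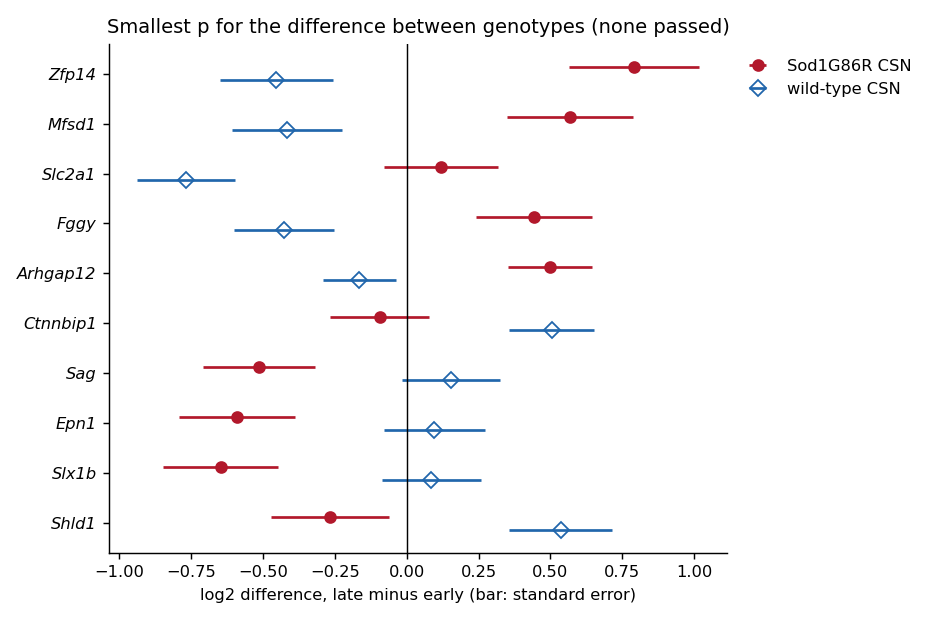
Log2 difference, late minus early (horizontal), of the 5 genes with the smallest p for the difference between genotypes in each direction, with its standard error. Filled circles are Sod1G86R CSN and open diamonds wild-type CSN. Zfp14 lies at 0.79 in the mutant and -0.45 in wild type, and none of the 10 passed.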

How the data were processed

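RNA was measured in 57 mouse brain libraries, of which the 29 CSN libraries were fitted. Per the series' design text, cDNA was made with SMART-Seq, and reads were aligned to GRCm38 with STAR 2.7.0 and counted on Ensembl 87. The deposited values are a signal that, per the file headers, is normalised counts. They were whole multiples of 1 step per library within 0.001 (100% of values), so reads were recovered from them. No source used here says how the authors normalised them. In the submitters' processing notes, edgeR and mm10 appear with no stated role.

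Genes at or above 34.6 in 3 CSN libraries were kept. Limma 3.58.1 (R 4.3.3, trended, robust) was fitted with 1 coefficient per genotype and age, and late against early was the mean of 90 and 105 days minus that of 30 and 60 days. The design assumed normalised values, and the 105-day mutant group of 2 libraries shares the spread of all groups. Alternative tests of the recovered reads used DESeq2 1.42.0 and edgeR 4.0.16. Library measures were compared by exact permutation. The fits were tested on simulated data.

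Libraries, gene lists and rules were chosen with earlier results of these data known. Sod1 and Creb3 are always named. Where fewer than 3 genes passed, genes averaging 345.9 or more in whichever group is higher were ranked by p, and the first 5 in each direction are given, with up to 2 members per list. A gene such as Mzf1 can thus qualify through the group where it is high. Items withheld for evaluation are not reported here. Coordinates are GENCODE's on GRCm38. Reads have no molecular identifiers, and intervals cover only the spread between libraries.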

Additional observations from a re-analysis of the deposited data

Results flagged for a closer look

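A library stood apart from the rest of its group, by a gap large against the group's range, in 17 of 214 groups of 6 late or 7 early mutant CSN libraries examined, and chance flags about 1 in 20 groups.

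The 90-day replicate 8 was high for Mag (845.2, others 54.58 to 218.2), Itgam (44.04, others 4.119 to 14.82), Cst7 (25.3, others 0 to 5.798) and mt-Co2 (696.2, others 356.3 to 450.9). The 105-day replicate 13 was high for the interneuron genes Sst (2673, others 21.96 to 269.3) and Npy (736.6, others 39.12 to 228.1). The 90-day replicate 6 was high for Kcnd3 (2306, others 1113 to 1503) and low for Ddit3 (971.5, others 1409 to 1614).

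Among early libraries, the 30-day replicate 6 was high for Pcp4 (70510, others 33720 to 47680), Marcksl1 (1024, others 140.8 to 514.3), Ctnnbip1 (2651, others 1435 to 1879) and Zfp14 (394.1, others 288.4 to 332.4). The 30-day replicate 4 was high for Mag (1523, others 69.24 to 294.6) and Plppr2 (2333, others 1637 to 1862), and the 30-day replicate 3 for Fkbp5 (2670, others 585.5 to 1112). The 60-day replicate 5 was high for Kcnd3 (1919, others 740.3 to 1032), and the 60-day replicate 1 for Sst (229, others 4.179 to 81.47).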

How the results depend on the processing

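The count of genes past the test was 0 in mutant, wild type and their difference under every alternative other than those named here. With array weights it was 1 in the mutant (Mzf1). With DESeq2 it was 9, 7 and 1. Leaving out each library gave 0 to 1 in the mutant (Mzf1 without 60-day replicate 1, Adamtsl5 without 30-day replicate 6), 0 to 2 in wild type (Lars2 and Gm24270 without 30-day replicate 3) and 0 for the difference. Mutant genes at an unadjusted p under 0.05 numbered 674 to 2174 without 1 library, 498 without the 90-day libraries, 666 for 105 against 30 days and 2944 with array weights. With the replicate number as a block the counts stayed at 0, 0 and 0, with 2104 mutant and 768 wild-type genes at an unadjusted p under 0.05. Pairing was looked at on log2 levels from which the mean of each genotype and age had been taken away. On these remainders, same-numbered late and early CSN libraries of a genotype correlated by -0.304 to 0.212. There were 7 such pairs over both genotypes, 3 of them over 0.1, so the numbers were not taken as pairs.

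Leaving out each mutant library, late minus early ranged from 11.3 to 15.7 M reads and from 23.7 to 42.1 in library number. For the percentage of olfactory, vomeronasal and taste receptor genes it ranged from -0.00752 to -0.00376. Exact permutation adjusted p went down to 0.0303, 0.0303 and 0.026 for these measures, in that order. With all libraries the receptor percentage averaged 0.00878 late and 0.0148 early (exact permutation adjusted p = 0.122). For library number that adjusted p was 0.161. Log2 differences in the mutant took the other sign for Sod1 (-0.10 with library number, -0.12 with the replicate block, -0.049 without 105-day libraries), and without 30-day libraries for Cplx2 (-0.017), Mag (0.10), Crym (0.17) and Pcp4 (0.14). They did so without 90-day libraries for Crym (0.071) and Pcp4 (0.088), without 60-day libraries for mt-Atp8 (0.027) and Atf4 (-0.029), and with the replicate block for Fezf2 (-0.026). Further cases were Aqp4 (-0.23) and Trf (-0.17) with library number, and Bcl11b (-0.009) and Atf4 (-0.017) with quantile normalisation. Leaving out each library, the difference reached or crossed 0 for Sod1 (0.00 to 0.276), Mag (-0.826 to 0.058), Trf (-0.12 to 1.134) and Pcp4 (-0.132 to 0.051). The cause was not tested. The other named genes kept their sign. Medians of 49 lists over 3 comparisons moved by more than the spread between libraries in 141 of 6027 refits.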
